A study of Mus musculus with 405 samples.

Results

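The genes described here were 9 genes of the pathway of YAP and TAZ: the co-activator genes Yap1 and Wwtr1 (which encodes TAZ), Tead1, Lats2, Amotl2, Ctgf, Cyr61, Axl and Ankrd1. They were found by gene symbol among 23893 genes of a count table and 13304 genes of a screen table, where all 9 and 8 of the 9 were listed, respectively, Ankrd1 being the gene with no row in the screen. They were selected on their measured levels in both tables, whose results were known, so those levels are given as a description and carry no test. Primary cortical cultures were made from embryonic day 15 embryos of C57BL/6J dams crossed to CAST/EiJ males, and polyadenylated RNA was sequenced. On day 7 in vitro, wells received 1 chemical or vehicle (dimethylsulphoxide) for 24 h. The screen held 49 vehicle libraries and 344 libraries of 297 chemicals, of which 282 chemicals had 1 library. The count table held 4 libraries treated with 0.1 µM pyraclostrobin, a fungicide that blocks the quinol oxidation site of mitochondrial complex III, and 4 vehicle libraries, and each library is named by the number of its pair (Nseq428, Nseq702, Nseq703 or Nseq704). All cultures, vehicle included, had also been given fluorodeoxyuridine with uridine triphosphate from day 3 to stop dividing cells, so none is free of an antimitotic agent. The cultures were mixed, holding glia as well as neurons, and the values are those of whole wells.

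YAP and TAZ are transcriptional co-activators that shuttle between cytoplasm and nucleus. The Hippo kinases MST1 and MST2 activate LATS1 and LATS2, which phosphorylate YAP and TAZ and so hold them in the cytoplasm, and angiomotin proteins such as AMOTL2 bind them there or at junctions. In the nucleus, YAP and TAZ bind DNA through TEAD factors and raise genes such as Ctgf and Cyr61 (secreted matrix-associated proteins), Ankrd1 (a muscle ankyrin-repeat protein) and Axl (a receptor tyrosine kinase). Lats2 and Amotl2 are themselves target genes, which closes a feedback loop. In the brain the pathway is best known for progenitors, astrocytes and vessel-associated cells, while most mature neurons carry little YAP.

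On mm9, the mouse build used by the submitters, Ctgf spans chromosome 10 from 24315248 to 24318489 on the forward strand and Cyr61 spans chromosome 3 from 145309935 to 145312949 on the reverse strand. Both are compact genes, with spans of 3.24 kb and 3.02 kb. Tead1 is at the other end of the range: it lies on chromosome 7 from 119822832 to 120050319 (forward strand) and spans 227.5 kb. Wwtr1 covers 120.3 kb of chromosome 3 (57259571 to 57379832, reverse strand) and Lats2 covers 116.3 kb of chromosome 14 (58260914 to 58377225, reverse strand). Yap1 lies on chromosome 9 from 7931999 to 8004596 (reverse strand) and Amotl2 on the same chromosome from 102619002 to 102635748 (forward strand). Axl lies on chromosome 7 from 26542292 to 26573724 (reverse strand), and Ankrd1 on chromosome 19 from 36186455 to 36194334 (reverse strand).

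RefSeq promoters on GRCm38.p6 were matched by symbol for 7 of the 9 genes (9 start sites, with Lats2 and Wwtr1 having more than 1 and Cyr61 listed as Ccn1); no sequence was matched for Ctgf and Tead1. The letters GGAATG, the core bound by TEAD factors, were searched on both strands (CATTCC on the other) in the 250 bases before each start. They were present in 7 of these 9 promoters, belonging to 6 genes, and in 12.6% of the 32851 promoters of the table. The copies in both Wwtr1 promoters are the same stretch of DNA. A CArG box, the element bound by SRF, was present in 0 of the 9 and in 1.47% of all promoters. The 250 bases before the start are shown for 5 genes that were higher with pyraclostrobin, 5′ to 3′ on the gene's strand, with the TEAD core in capitals.
Cyr61 (chr3:145649986-145650235, reverse strand): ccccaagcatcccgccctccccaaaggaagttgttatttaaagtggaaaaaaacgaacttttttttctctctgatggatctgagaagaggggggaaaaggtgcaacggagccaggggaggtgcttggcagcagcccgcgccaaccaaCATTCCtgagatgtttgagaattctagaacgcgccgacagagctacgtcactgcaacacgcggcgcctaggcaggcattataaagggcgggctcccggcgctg
Amotl2 (chr9:102717554-102717803, forward strand): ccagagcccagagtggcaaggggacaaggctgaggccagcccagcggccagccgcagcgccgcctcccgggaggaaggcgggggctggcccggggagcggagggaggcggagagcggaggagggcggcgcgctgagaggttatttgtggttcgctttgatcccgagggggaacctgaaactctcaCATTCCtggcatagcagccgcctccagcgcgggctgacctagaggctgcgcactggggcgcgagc
Axl (chr7:25788734-25788983, reverse strand): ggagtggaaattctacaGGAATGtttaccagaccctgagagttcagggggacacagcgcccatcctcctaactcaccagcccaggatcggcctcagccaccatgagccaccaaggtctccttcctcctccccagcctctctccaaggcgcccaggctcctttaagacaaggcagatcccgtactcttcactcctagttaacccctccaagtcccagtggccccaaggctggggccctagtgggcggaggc
Wwtr1 (chr3:57575911-57576160, reverse strand): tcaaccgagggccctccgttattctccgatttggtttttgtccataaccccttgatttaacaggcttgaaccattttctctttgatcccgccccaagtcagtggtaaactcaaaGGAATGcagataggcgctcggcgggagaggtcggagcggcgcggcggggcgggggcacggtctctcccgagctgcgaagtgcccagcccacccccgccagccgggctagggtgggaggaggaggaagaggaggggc
Yap1 (chr9:8004597-8004846, reverse strand): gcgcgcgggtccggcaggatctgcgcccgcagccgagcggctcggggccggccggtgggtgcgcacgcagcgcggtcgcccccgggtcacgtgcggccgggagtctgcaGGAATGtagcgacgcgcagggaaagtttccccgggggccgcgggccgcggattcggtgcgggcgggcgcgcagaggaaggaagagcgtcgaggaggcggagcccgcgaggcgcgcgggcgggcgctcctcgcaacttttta
The first base of the core lies 103 bases before the start in Cyr61, 65 in Amotl2, 136 in Wwtr1 and 141 in Yap1, and near the far end of the window in Axl. Ankrd1 holds 2 copies, 210 and 123 bases before its start, and neither Lats2 promoter holds one. These are matches of letters and say nothing of binding in these cultures.

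The count libraries held between 2409623 and 7833440 counts. Levels below are CPM, counts scaled to a common library size by TMM factors, where 3 counts correspond to between 0.383 and 1.25 CPM on unscaled totals. Pair Nseq428 stood apart: within a group, the chi-square of counts per gene was between 7.79 and 26 against its libraries, and between 1.82 and 2.98 among the other 3 pairs. The log2 fold changes of the 8 detected genes, the order of their levels and the counts of pathway genes called are therefore also given without it. The 7 neuronal markers summed to between 7278 and 7618 CPM in vehicle, and the 7 astrocyte markers to between 662 and 1007 CPM in the same libraries. Sums of different genes do not give shares of cells. Of the endothelial markers, Cldn5 was at 0 counts in all 8 libraries.

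With pyraclostrobin, 8 of the 9 genes stood higher than with vehicle in every library, and 2277 genes (18.5% of the 12324 tested by edgeR) were called higher and 2024 (16.4%) lower. For all 8, the lowest pyraclostrobin library lay above the highest vehicle library, a separation in that direction found for 18.1% of the genes tested. Their median log2 fold change was 2.39, beside 0.00 for all genes tested. Since the genes were chosen with this comparison known, their count is a description.

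Yap1, one of the paired co-activator genes, had 67.5, 47.1, 59.0 and 43.6 CPM with pyraclostrobin in pairs Nseq428, Nseq702, Nseq703 and Nseq704, and 21, 16.3, 13.4 and 13.8 CPM with vehicle. The groups did not overlap, and pair Nseq428 was the highest of both. The log2 fold change was 1.78 ± 0.20 (SE, n = 4 per group), a 3.44-fold difference, and 1.82 without pair Nseq428. Wwtr1, the gene of TAZ, had 158.0, 71.4, 79.8 and 66.8 CPM with pyraclostrobin and 29.1, 17.1, 18.1 and 15.0 CPM with vehicle, in the same order of pairs. Pair Nseq428 was again the highest in both groups. The log2 fold change of Wwtr1 was 2.27 ± 0.31 and was 2.13 without pair Nseq428. Tead1, which encodes the DNA-binding partner, went from 24.9, 45, 40.6 and 40.7 CPM with vehicle to 342.4, 177.2, 228.5 and 194.5 CPM with pyraclostrobin. Here pair Nseq428 held the lowest vehicle and the highest pyraclostrobin value, so its log2 ratio of 3.76 exceeded the 2.27 found without it, and the fit over all libraries gave 2.64 ± 0.24.

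The negative regulators were higher as well. Lats2, the kinase that restrains YAP and TAZ, had 223.1, 170.5, 213.8 and 135.6 CPM with pyraclostrobin against 28.4, 44.2, 40.7 and 50.7 CPM with vehicle. Its log2 fold change was 2.17 ± 0.21, and 1.94 without pair Nseq428, which again had the widest gap. Amotl2, the angiomotin-like scaffold, had 193.5, 155.9, 192.6 and 161.5 CPM against 42.3, 64.8, 65.0 and 63.4 CPM. It had the smallest difference of the 8, with a log2 fold change of 1.58 ± 0.16, and 1.41 without pair Nseq428.

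Among the target genes of the 8, Cyr61 and Axl differed most. Levels of Cyr61 were 370.5, 278.9, 333.7 and 259.4 CPM with pyraclostrobin and 57.2, 31.4, 32.5 and 39.2 CPM with vehicle. Its log2 fold change was 2.97 ± 0.21, or 7.82-fold. Ctgf, its close relative in the CCN family of matrix-associated proteins, had 228.9, 261.7, 325.4 and 259.8 CPM against 45.1, 47.3, 45.9 and 51.4 CPM. The 4 vehicle libraries of Ctgf were the tightest of any of these genes (SD 2.81 CPM), and its log2 fold change was 2.50 ± 0.14. For Axl, the values were 88.9, 50.1, 70.0 and 44.0 CPM with pyraclostrobin and 16.7, 8.15, 7.12 and 5.53 CPM with vehicle. Its log2 fold change of 2.84 ± 0.34 had the largest error of the 8. Without pair Nseq428 the values were 3.06 for Cyr61, 2.55 for Ctgf and 3.04 for Axl. Without only the vehicle library of that pair, Axl (3.24) stood above Cyr61 (3.17). Ankrd1, by contrast, had 1 count in the pyraclostrobin library of pair Nseq703 and 0 counts in the other 7 libraries, which is under the limit of 3 counts in every library and gives no fold change.

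**Figure D1:**
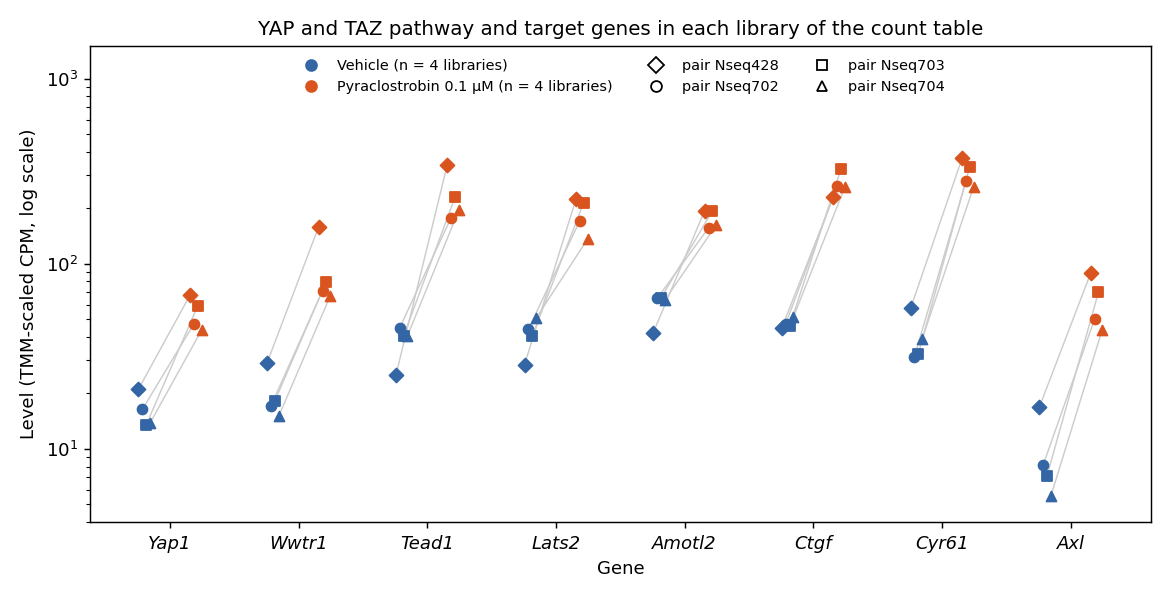
Level of the 8 detected genes in each library (y axis, TMM-scaled CPM on a log scale), with vehicle in blue and pyraclostrobin in orange, 4 libraries each, and grey lines joining libraries of the same pair. The pyraclostrobin points of every gene lie above all its vehicle points, and pair Nseq428 (diamonds) has the steepest line for Tead1, Lats2, Amotl2 and Wwtr1.

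Per kilobase of annotated exon, the order of the levels in vehicle was Cyr61 (19.8 ± 5.88 CPM per kb, SD, n = 4), Ctgf (19.1 ± 1.13), Amotl2 (9.36 ± 1.76), Lats2 (5.62 ± 1.28), Wwtr1 (4.15 ± 1.33), Tead1 (3.36 ± 0.787), Axl (1.86 ± 0.994) and Yap1 (1.74 ± 0.376). Of the 7 neighbouring pairs in this order, only Ctgf and Amotl2 had ranges that did not overlap. The order of 3 neighbouring pairs turned without pair Nseq428: Ctgf (19.4 ± 1.15, n = 3) then stood above Cyr61 (16.9 ± 2.07), Tead1 (3.75 ± 0.225) above Wwtr1 (3.50 ± 0.338) and Yap1 (1.57 ± 0.169) above Axl (1.38 ± 0.262), with overlapping ranges in each. With pyraclostrobin, Cyr61 stood at 153.2 ± 25.1 CPM per kb and Ctgf at 108 ± 16.3, and their ranges overlapped. The next gene, Amotl2, was at 27.96 ± 3.17, below all libraries of Ctgf, and Yap1 was the lowest at 5.87 ± 1.19, below all libraries of Axl (12.6 ± 4.05). With pyraclostrobin, the order of the 8 genes was the same without pair Nseq428. The genes of the secreted CCN proteins, Cyr61 and Ctgf, had the highest levels per length in both groups, with or without that pair.

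Cell type markers moved with these genes. The 7 neuronal markers (Rbfox3, Tubb3, Map2 and others) were all lower without overlap, summing to between 2919 and 3887 CPM with pyraclostrobin against between 7278 and 7618 CPM with vehicle. The microglial markers summed to between 59.3 and 90.1 CPM against between 14.8 and 22.7 CPM, with 6 of 8 higher without overlap. For mural cells the sums were between 70.0 and 95.6 CPM against between 18.1 and 23.3 CPM (3 of 6 higher), and for fibroblast and meningeal cells between 129 and 276 CPM against between 25.6 and 66.1 CPM (3 of 6 higher). The markers of dividing cells summed to between 102 and 200 CPM against between 31.1 and 71.4 CPM (3 of 5 higher). Endothelial markers summed to between 15.7 and 23.4 CPM against between 4.97 and 9.95 CPM (1 of 6 higher), and those of the oligodendrocyte lineage to between 195 and 309 CPM against between 107 and 203 CPM (2 of 7 higher, 1 of 7 lower). Some sums rest largely on 1 gene. With pyraclostrobin, Notch3 gave between 57.8 and 82.3 CPM of the mural sum and Kdr between 13.1 and 20.4 CPM of the endothelial sum. Col1a1 gave between 75.3 and 168 CPM of the fibroblast and meningeal sum, while Rgs5, Kcnj8, Abcc9 and Dcn overlapped with vehicle. Of all genes tested, 18.1% were higher without overlap. The share lower without overlap was not counted, and 16.4% of all genes tested were called lower by edgeR. Astrocyte markers summed to 3317 CPM in the pyraclostrobin library of pair Nseq428, to between 979 and 1087 CPM in the other 3, and to between 662 and 1007 CPM in vehicle, with 2 of 7 higher without overlap. In whole wells, more or fewer cells of a type and more or less RNA per cell cannot be told apart. The part of these shifts in the values of the YAP and TAZ genes was not tested.

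Beyond these 9 genes, 60 further genes of the pathway were listed as upstream kinases and scaffolds, nuclear partners or other target genes, and 53 of them passed the filter on low counts. With pyraclostrobin, 33 rose, 4 fell and 16 did not pass the test (edgeR, adjusted p under 0.05 over all 12324 genes), beside 18.5% and 16.4% of all genes called higher and lower. The median log2 fold change of the 53 was 0.96, beside 0.00 for all genes tested. In 8 of the 53, at least 1 vehicle library had under 10 counts, and 6 of those 8 were among the genes that rose, so these 6 passed the filter partly through the group in which they were high. Without pair Nseq428, 36 rose and 7 fell, where 25.3% of all genes tested were called higher and 24.9% lower, and all 37 genes called with every library were called in the same direction.

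Of 24 upstream kinases and scaffolds tested, 11 rose, 3 fell and 10 did not pass, beside 18.5% and 16.4% of all genes called higher and lower. Their median log2 fold change was 0.51. The largest rises were in LIM-domain and junction scaffolds: Ajuba, a LIM protein that binds LATS kinases, went from 6.75 ± 1.39 to 48.2 ± 18.6 CPM (mean ± SD, n = 4), a log2 fold change of 2.87 ± 0.29 (SE; edgeR adjusted p = 5.45e-05). Ptpn14, a phosphatase that binds YAP, rose by 2.74 ± 0.20 (edgeR adjusted p = 7.1e-06) and the angiomotin family member Amotl1 by 2.02 ± 0.16 (edgeR adjusted p = 1.35e-05). The 3 genes that fell were Taok2 and Taok3, kinases upstream of the Hippo kinases, and Nf2, which encodes merlin. Taok2 went from 277 ± 16.3 to 179 ± 17.1 CPM (log2 fold change -0.63 ± 0.11, edgeR adjusted p = 0.00131), Taok3 had a log2 fold change of -0.47 ± 0.15 (edgeR adjusted p = 0.0327) and Nf2 one of -0.32 ± 0.10 (edgeR adjusted p = 0.0329). The calls of Taok3 and Nf2 were lost when pyraclostrobin library Nseq702 or vehicle library Nseq702, Nseq703 or Nseq704 was left out, and that of Nf2 also without pyraclostrobin library Nseq703. On this list, which leaves out Lats2 (described above), the core kinase genes Stk3 and Lats1 did not pass. Stk3, which encodes MST2, had 22.2 ± 2.20 against 15.4 ± 4.32 CPM, and Lats1 had 152.7 ± 11.3 against 119 ± 16.8 CPM (edgeR adjusted p = 0.0514). Both were called higher without pair Nseq428, without its vehicle library alone, and with the pair as a replicate block.

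Of 9 nuclear partners tested, 6 rose, 0 fell and 3 did not pass (edgeR), beside 18.5% and 16.4% of all genes called higher and lower. With so few genes, 0 lower says little beside that share. DESeq2, which adjusted p over 14787 genes, called 8 higher and 0 lower (17% and 15.5% of all genes), and the number lower at an unadjusted p under 0.05 was 0 with either tool. The median log2 fold change was 1.09. Vgll3, a vestigial-like cofactor of TEAD, went from 7.30 ± 3.00 to 55.3 ± 7.26 CPM (log2 fold change 2.94 ± 0.25, edgeR adjusted p = 1.88e-05). The TEAD factor genes Tead2 and Tead3 were low, at 2.56 ± 1.87 and 1.58 ± 1.04 CPM with vehicle and 12.5 ± 5.12 and 8.47 ± 3.40 CPM with pyraclostrobin. Both had under 10 counts in at least 1 vehicle library and so passed the filter partly through the treated group, and no p is given for them. Tead4, Vgll2 and Runx1 were below the filter, with 2.41 ± 1.47, 0.285 ± 0.360 and 4.53 ± 2.88 CPM under pyraclostrobin and 0.168 ± 0.161, 0.0671 ± 0.134 and 1.13 ± 0.389 CPM under vehicle. Tead4 and Runx1 were called higher by DESeq2. Both were low in vehicle and so entered its test partly through the treated group, and no p is given for them either.

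Of 23 other target genes tested, 19 rose, 1 fell and 3 did not pass, beside 18.5% and 16.4% of all genes called higher and lower. Their median log2 fold change was 1.95. Ajuba, Ptpn14 and Amotl1 stand on this list too. Thbs1, a matrix glycoprotein, went from 71.0 ± 11.7 CPM in vehicle to 693 ± 83.3 CPM with pyraclostrobin (log2 fold change 3.30 ± 0.15, edgeR adjusted p = 1.87e-06). Myof, a ferlin of the plasma membrane, had 18.8 ± 5.98 CPM against 2.43 ± 1.16 CPM, and it too passed the filter partly through the treated group. The gene that fell was Fjx1, the mouse counterpart of fly four-jointed (log2 fold change -0.34 ± 0.12, edgeR adjusted p = 0.0409), and this call was lost without pyraclostrobin library Nseq428 or Nseq702 and without vehicle library Nseq702, Nseq703 or Nseq704.

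**Figure D2:**
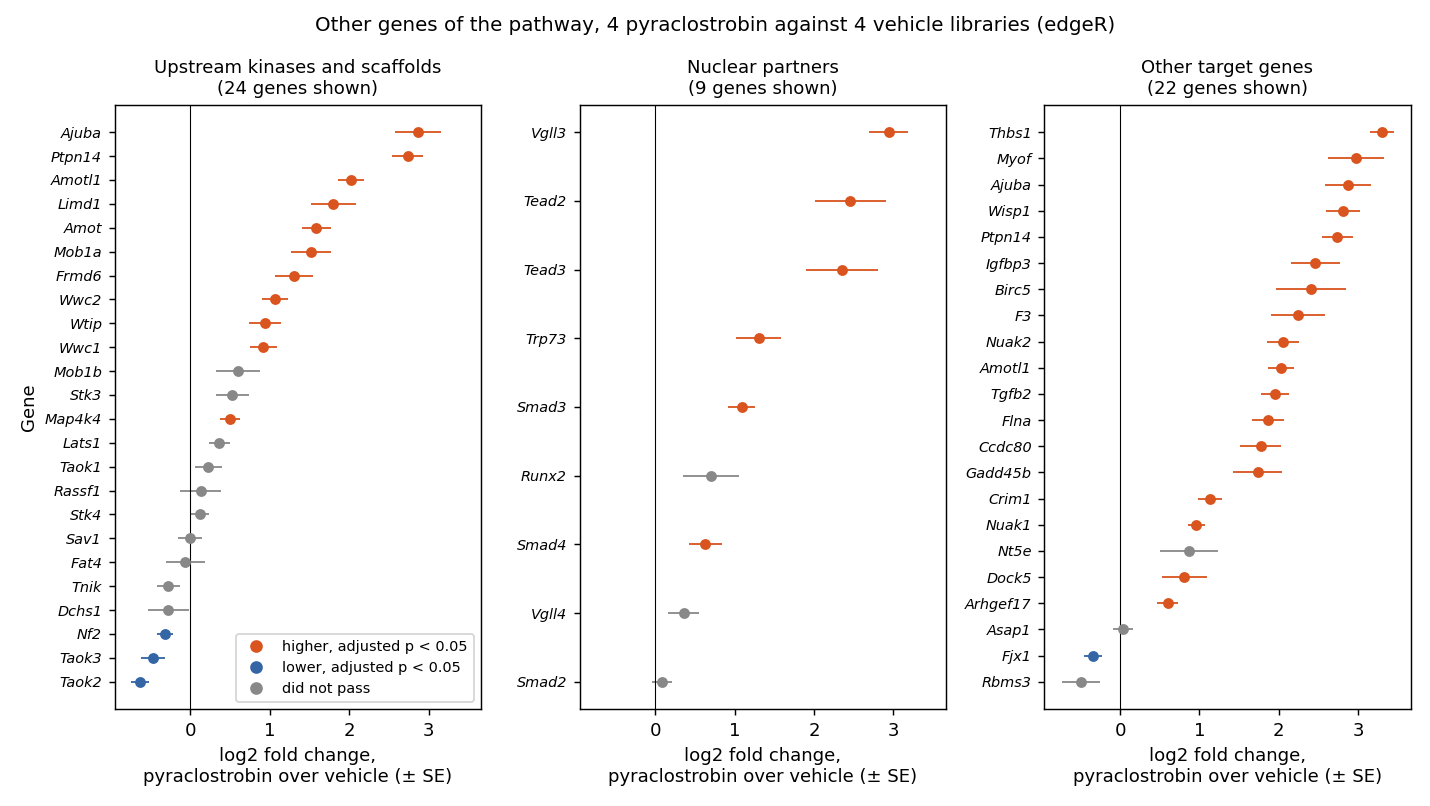
The log2 fold change of the further pathway genes tested, 1 gene of the last list left out (x axis, pyraclostrobin over vehicle, with bars of 1 SE, 4 libraries per group), by list. Orange points were called higher, blue points lower and grey points did not pass at an adjusted p of 0.05: 18 of the 22 other target genes shown are orange, while the upstream list holds 11 orange, 3 blue and 10 grey points. Of all genes tested, 18.5% were called higher and 16.4% lower.

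The screen values are of another kind: after median centring and the removal of batch effects by the submitters, a value is a log2 deviation from a gene's usual level, with no level and no depth. In the 49 vehicle libraries, the SD of these genes ran from 0.22 (Lats2) to 0.30 (Axl) on the log2 scale, beside a median of 0.25 over all 13304 genes. Chemicals with several libraries were summarised by their median. Ctgf lay above all 49 vehicle libraries with 16 chemicals and below all of them with 21, where the median over all genes was 4 above and 5 below. Cyr61, which encodes a sister protein of Ctgf, lay above with 38 chemicals and below with 14, and its values ran from -1.60 to 1.46 over the 297 chemicals. Fewer than 38 chemicals lay above the vehicle libraries for 99.3% of all genes. Axl lay above with 22 chemicals and below with 6, and spanned -1.26 to 1.27. For the pathway's own factors, the number of chemicals above was 10 for Yap1 and for Wwtr1, 8 for Tead1 and 7 for Lats2, and the number below was 13, 9, 11 and 3. Lats2 was highest at 1.48, with the pyrethroid fenpropathrin at 10 µM. Amotl2 lay outside its vehicle range with 0 chemicals in either direction, since its vehicle libraries ran from -0.74 to 0.62 and its chemicals from -0.58 to 0.61.

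To rank chemicals, each gene was divided by its SD over the vehicle libraries and the 8 genes were averaged. Single vehicle libraries ran from -1.66 to 1.81 with a median of 0.16, and 8 chemicals lay above the highest of them. Trifloxystrobin at 10 µM was first at 4.11, with 7 of 8 genes above all vehicle libraries, as were 4.93% of all genes. Fenpyroximate at 0.1 µM was second at 3.94 (7 of 8, beside 5.07% of all genes) and pyraclostrobin at 0.1 µM followed at 3.79 (6 of 8, beside 4.65%). That pyraclostrobin library is also the treated library of pair Nseq428 and is no further evidence. Fenamidone at 10 µM reached 3.06 (7 of 8, beside 3.8%), with 2.90 and 3.22 in its 2 libraries. Famoxadone at 10 µM reached 2.96 (7 of 8, beside 2.84%), with 2.54 and 3.39, and rotenone at 0.01 µM reached 2.30 (4 of 8, beside 1.43%), with 2.42 and 2.18. Every library of these 3 chemicals therefore lay above all 49 vehicle libraries. Iodosulfuron-methyl-sodium at 10 µM, a sulfonylurea herbicide, stood at 2.16 (4 of 8, beside 2.67%), and S-Bioallethrin at 10 µM, a pyrethroid insecticide, at 1.88 (3 of 8, beside 2.41%), each from 1 library. In S-Bioallethrin, Axl alone was at 1.27 while Amotl2 was at 0.07. As the genes were chosen with the screen known, these counts are a description.

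**Figure D3:**
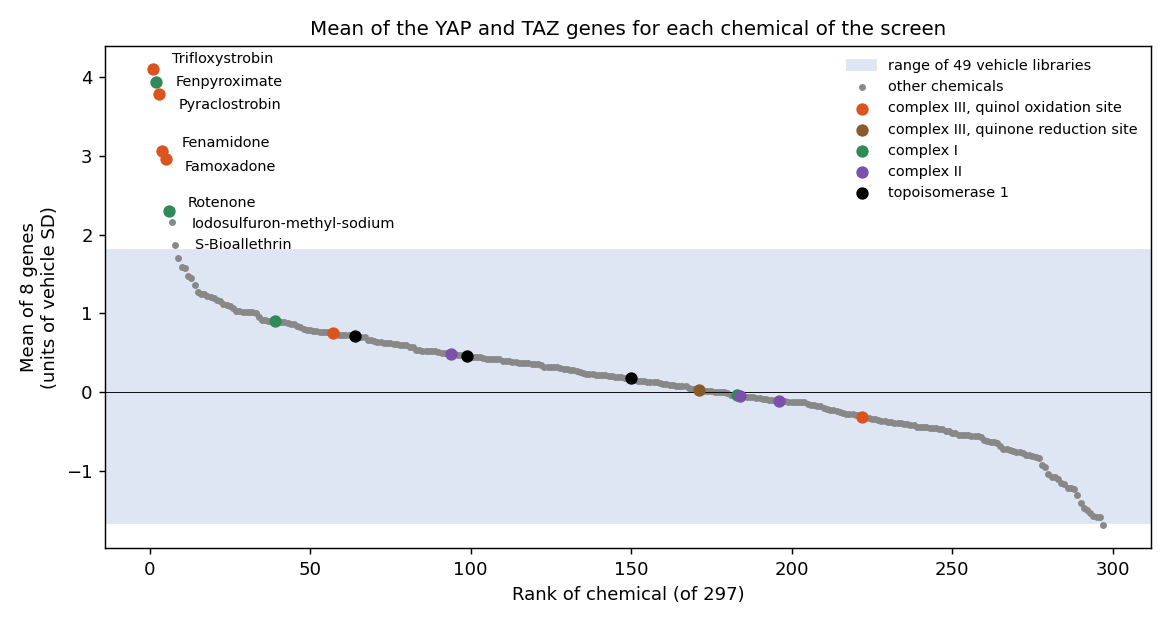
The mean of the 8 genes for each of the 297 chemicals (y axis, units of the vehicle SD), ordered from highest to lowest (x axis), with the range of the 49 vehicle libraries shaded and inhibitors of named targets coloured. The 8 labelled chemicals lie above the shaded range of -1.66 to 1.81, and 6 of them are inhibitors of complex III or complex I.

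At the other end, the lowest 8 chemicals ran from -1.41 to -1.69, and 1 of them, ethoprop, lay below the lowest vehicle library. From the lowest upward they were ethoprop, chlorpyrifos-methyl, imazapyr, dichlorprop, endosulfan, fenoxaprop-ethyl, linuron and quintozene, all at 10 µM and from 1 library each. Cyr61 was low in all 8 of them, between -0.60 and -1.05, whereas Yap1 lay between -0.62 and 0.09. Ethoprop held the lowest Ctgf of these 8 (-0.78) together with the highest Amotl2 (0.31).

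Chemicals that share a named target did not all stand together, and their doses differ, so they are set side by side and not compared. Among the 6 inhibitors of the quinol oxidation site of complex III, trifloxystrobin, pyraclostrobin, fenamidone and famoxadone were among the highest 5 chemicals, while fluoxastrobin at 1 µM stood at 0.75 and azoxystrobin at 0.1 µM at -0.32, with 0.26 and -0.90 in its 2 libraries. The median of the 6 was 3.01. Cyazofamid at 10 µM, which acts at the quinone reduction site of the same complex, stood at 0.03, with its 8 genes between -0.10 and 0.16. Among the 4 complex I inhibitors, fenpyroximate at 3.94 and rotenone at 2.30 were followed by pyridaben at 0.1 µM (0.90) and tebufenpyrad at 0.01 µM (-0.04). With pyridaben, all 8 genes were above 0, from 0.10 (Wwtr1) to 0.35 (Ctgf), though within the vehicle range. The 3 complex II inhibitors, all at 10 µM, stood at 0.49 for carboxin, -0.05 for flutolanil and -0.11 for boscalid. Cyr61 exceeded Ctgf in trifloxystrobin (1.419 and 1.37), fenpyroximate (1.28 and 1.12), fenamidone (0.91 and 0.58) and famoxadone (0.95 and 0.88). In rotenone the medians were 0.67 and 0.70, but its 2 libraries differed, with Cyr61 at 0.61 and 0.72 and Ctgf at 0.72 and 0.68. The vehicle SD was 0.25 for Cyr61 and 0.23 for Ctgf. Of trifloxystrobin, fenpyroximate, fenamidone, famoxadone and rotenone, only fenamidone had medians further apart than both SDs. In its first library the gap was narrower than both (0.97 for Cyr61 and 0.78 for Ctgf), and in its second wider (0.85 and 0.38). The gap was also wider than both SDs in pyraclostrobin (1.46 and 1.15) and, with Ctgf the higher, in flutolanil (-0.38 and -0.08), from 1 library each. By the medians, Axl was the highest of the 8 in fenamidone at 1.15 and the lowest in rotenone at 0.34. In 1 fenamidone library Cyr61 (0.97) lay above Axl (0.94), and in 1 rotenone library Yap1 (0.33) lay below Axl (0.43).

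**Figure D4:**
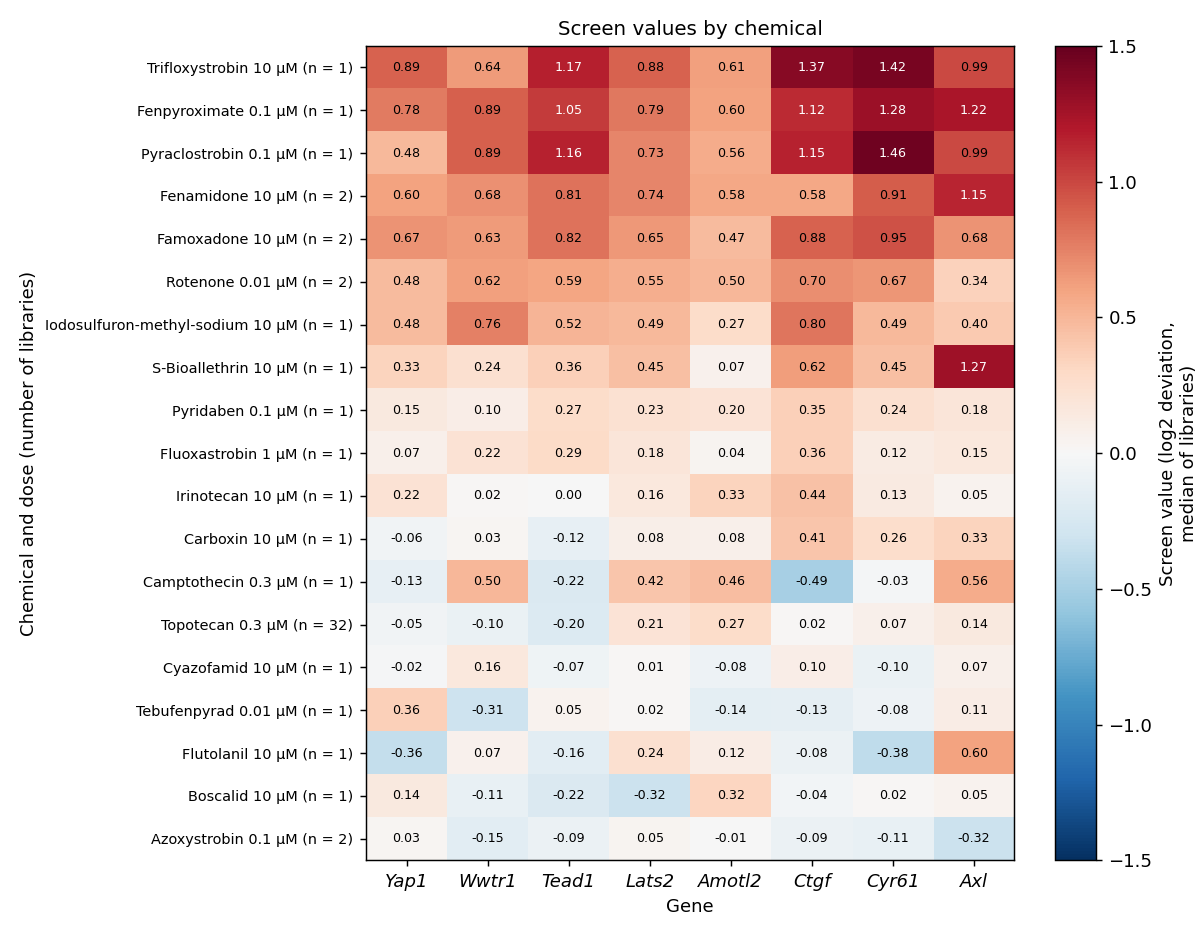
Screen values (colour and printed number, log2 deviation, median of a chemical's libraries) of the 8 genes (columns) for the 8 highest chemicals and all inhibitors of named targets (rows, in order of their mean, with dose and number of libraries). The rows of the 8 highest chemicals, pyridaben and fluoxastrobin are positive for all 8 genes, whereas every row from carboxin downward holds values of both signs.

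Cell type markers also moved in the high chemicals of the screen. In vehicle libraries the mean of the 7 neuronal markers, in the same SD units, ran from -0.96 to 1.71. It was -5.45 with trifloxystrobin, -4.62 with fenpyroximate, -5.54 with pyraclostrobin, -5.05 with fenamidone, -3.71 with famoxadone and -1.35 with rotenone. With iodosulfuron-methyl-sodium it was -0.40 and with S-Bioallethrin -0.91, both inside the vehicle range. The astrocyte markers (6 of 7 listed, vehicle range -1.83 to 1.47) stood between -0.08 and 1.80 in the 8 highest chemicals, and the mural markers (3 of 6 listed, vehicle range -1.60 to 1.15) between -0.74 and 1.99. The microglial markers (3 of 8 listed, vehicle range -1.49 to 1.43) stood between 0.14 and 1.75, and the fibroblast and meningeal markers (5 of 6 listed, vehicle range -1.25 to 1.69) between -0.18 and 1.99. The oligodendrocyte markers (6 of 7 listed) stood between -0.42 and 0.33 within a vehicle range of -1.12 to 0.57. Markers of dividing cells (5 of 5 listed, vehicle range -2.75 to 1.09) stood between 0.30 and 1.92, and the single endothelial marker listed between -0.29 and 2.76 (vehicle range -2.86 to 2.45). Their part in the values of the YAP and TAZ genes was not tested.

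Topotecan at 0.3 µM, an inhibitor of topoisomerase 1, had more libraries than any other chemical, namely 32. Limma called 3308 genes higher (24.9%) and 2782 lower (20.9%) of 13304, and the median absolute difference over all genes was 0.12 on the log2 scale. The YAP and TAZ genes had differences of both signs, from -0.26 to 0.33, and all their ranges overlapped those of vehicle. The mean of the 8 genes, in units of the vehicle SD, ran from -1.07 to 2.64 over the topotecan libraries, and 2 of the 32 (at 1.85 and 2.64) lay above all 49 vehicle libraries. The single libraries of iodosulfuron-methyl-sodium (2.16) and S-Bioallethrin (1.88) lay within this range. So did both rotenone libraries (2.42 and 2.18) and 1 famoxadone library (2.54). Amotl2 lay highest relative to vehicle: its topotecan libraries ran from 0.06 over a median of 0.27 to 0.84, against -0.74, 0.00 and 0.62 in vehicle. All 32 libraries lay above the vehicle median, and the difference of means was 0.33 ± 0.05 (SE). Lats2 ran from -0.19 over 0.21 to 0.70 (difference 0.14 ± 0.05) and Axl from -0.70 over 0.14 to 0.92 (difference 0.13 ± 0.08), each with 21 of 32 libraries above the vehicle median. Tead1, the gene with the longest span, lay lowest: its libraries ran from -0.56 over -0.20 to 0.12, against -0.43, 0.05 and 0.50 in vehicle, with 4 of 32 above the vehicle median and a difference of -0.26 ± 0.05. Wwtr1 and Yap1 had differences of -0.13 ± 0.06 and -0.07 ± 0.05. For Ctgf and Cyr61 the differences were -0.05 ± 0.06 and 0.01 ± 0.07, each no larger than its SE, while their topotecan libraries were widely spread (SD 0.32 and 0.41, against 0.23 and 0.25 in vehicle). Camptothecin at 0.3 µM and irinotecan at 10 µM, inhibitors of the same enzyme with 1 library each, had Amotl2 at 0.46 and 0.33, Ctgf at -0.49 and 0.44, and Tead1 at -0.22 and 0.00.

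Of the further pathway genes, 54 of 60 were in the screen. With topotecan, 17 rose, 11 fell and 26 did not pass (limma, adjusted p under 0.05 over all 13304 genes), beside 24.9% and 20.9% of all genes called higher and lower, with a median difference of 0.03 on the log2 scale, which was also the median of all genes. Upstream, 7 rose, 6 fell and 11 did not pass. Ajuba rose by 0.35 ± 0.09 (limma adjusted p = 0.00123), its LIM relative Limd1 by 0.24 ± 0.07 (limma adjusted p = 0.00265) and the angiomotin gene Amot by 0.23 ± 0.06 (limma adjusted p = 0.000636). Tnik, a kinase of the MAP4K family, had the largest fall upstream (-0.81 ± 0.05, limma adjusted p = 2.03e-26), followed by the giant cadherin gene Fat4 (-0.38 ± 0.04, limma adjusted p = 7.48e-12) and Stk3 (-0.19 ± 0.06, limma adjusted p = 0.00323). Of the 10 nuclear partners in the table, Vgll3 (0.36 ± 0.07, limma adjusted p = 1.15e-05) and the signal mediator gene Smad2 (0.11 ± 0.04, limma adjusted p = 0.00894) rose, 0 fell (0 at an unadjusted limma p under 0.05) and 8 did not pass. Of 23 other target genes, 10 rose and 5 fell. Wisp1, another CCN family gene, rose by 0.60 ± 0.08 (limma adjusted p = 5.94e-10), the stress-inducible gene Gadd45b by 0.44 ± 0.12 (limma adjusted p = 0.00209) and Thbs1 by 0.35 ± 0.07 (limma adjusted p = 4.4e-05). The RNA-binding protein gene Rbms3 fell by 1.17 ± 0.06 on the log2 scale (limma adjusted p = 3.39e-31), the Rac activator gene Dock5 by 0.61 ± 0.08 (limma adjusted p = 1.04e-09) and Asap1, a regulator of Arf GTPases, by 0.34 ± 0.04 (limma adjusted p = 3.59e-10).

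Across the medians of the 297 chemicals, the 28 pairs of the 8 genes had Spearman correlations between 0.12 and 0.57, with a median of 0.31. The points are chemicals, mostly of 1 library, and both genes of a pair come from the same libraries and the same normalization, so the correlations are a description. Ctgf and Cyr61, the CCN genes, were the most alike pair (0.57), followed by Tead1 and Wwtr1 (0.50). Amotl2 had the weakest ties, with 0.12 to Lats2, 0.13 to Ctgf and 0.14 to Yap1. The co-activator genes Yap1 and Wwtr1 had a correlation of 0.24 with each other. In the 49 vehicle libraries alone, the same pairs had correlations between 0.15 and 0.65 with a median of 0.31, led by Tead1 and Wwtr1 (0.65). Pairs of other genes were not examined in this way, so these values have no background beside them.

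Outside these 8, the 10 genes whose pattern was most like their mean over the 297 chemicals were Sparc, Cald1, Ccnd2, Thbs1, Timp3, Ccnd1, Prss23, Ccng1, Csf1 and Cnn3, with Spearman correlations from 0.73 down to 0.67. They fell to between 0.72 and 0.65 over the 280 chemicals left when the inhibitors of named targets were set aside. Sparc and Timp3 encode secreted matrix-associated proteins, Cald1 and Cnn3 encode the actin-binding proteins caldesmon and calponin 3, and Ccnd1 and Ccnd2 encode D-type cyclins. In the count table, all 10 were higher with pyraclostrobin, where 18.5% of all genes tested were called higher. Their log2 fold changes lay between 1.66 ± 0.29 (Cnn3) and 3.35 ± 0.24 (Csf1, a growth factor of microglia). The 10 genes were picked for likeness to a mean that was itself high with pyraclostrobin. As 1 library is also shared by both tables, these values are given as a description.

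For these genes, the library shared by both tables differed less from vehicle in the screen than in the counts, on unlike references. In the count table, the treated library of pair Nseq428 differed from its vehicle library by a log2 ratio, on CPM plus 0.5, of 2.33 for Ctgf, 2.68 for Cyr61, 3.76 for Tead1 and 2.95 for Lats2. In the screen, the same treated library lay above the median of the 49 vehicle libraries by 1.06, 1.499, 1.10 and 0.72. For Amotl2 the values were 2.18 and 0.56, for Axl 2.38 and 0.95, for Wwtr1 2.42 and 0.85, and for Yap1 1.66 and 0.46. Over 11848 genes with at least 5 CPM in either library, the slope of the screen difference on the count ratio was 0.31 (Pearson r = 0.73, across genes, which are not independent replicates). The count ratio rests on 1 vehicle library and the screen difference on the median of 49. Noise in a ratio of single libraries also lowers such a slope, so the slope does not measure scale alone. A screen value of these genes should therefore not be read as a fold change in the counts.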

How the data were processed

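Cortical cultures were sequenced as 50-base paired-end polyadenylated RNA. After TagDust filtering and TopHat alignment to mm9, the authors deposited raw counts over RefSeq exons, with no normalization, for pyraclostrobin and vehicle. For the screen, the authors deposited log10 values, made from RPKM by quantile normalization, median centring and removal of batch effects, here multiplied to log2. A second count table was not analysed here because its 6 columns share 1 name and could not be tied to groups, so the planned test of sulforaphane with fenamidone was not run. Counts were tested with edgeR 4.0.16 (quasi-likelihood, TMM, at least 10 counts in at least 4 libraries, Benjamini-Hochberg adjusted p under 0.05), with DESeq2 1.42.0 as an alternative, and topotecan with limma 3.58.1 (variance trend, both under R 4.3.3), each checked on simulated data. Totals of 2409623 to 7833440 counts per library limit the precision of low genes, and depth is unknown for the screen. SE is the log2 fold change divided by the root of the F statistic. The study describes fewer biological replicates than libraries, so libraries may share a culture and p-values may then measure technical spread. The 9 genes and all gene lists were chosen with earlier results of these data known. Of the other pathway genes, at most the 3 largest rises and the 3 largest falls among those called were named per list (1 is not reported here), besides Stk3, Lats1, Tead4, Vgll2 and Runx1, named after their values were seen. Chemicals named were inhibitors of listed targets and the 8 highest and 8 lowest.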

Additional observations from a re-analysis of the deposited data

Results flagged for a closer look

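In 40 groups of 4 libraries, each a gene or a summed marker list, the gap of the highest or lowest library to its neighbour was compared with the group's range, and 5 exceeded Dixon's 95% limit; chance flags about 1 in 20. The astrocyte markers summed to 3317 CPM in the pyraclostrobin library of pair Nseq428, against between 979 and 1087 CPM in the other 3. In vehicle, the library of pair Nseq428 stood alone in the astrocyte markers (1007 CPM against between 662 and 672), in the oligodendrocyte lineage markers (203 CPM against between 107 and 112) and, on the low side, in Amotl2 (42.3 CPM against between 63.4 and 65.0). In the screen, 1 of the 4 diethyltoluamide libraries had Amotl2 at 0.18 on the log2 scale, against between -0.27 and -0.20 in the other 3. Of the 5, 4 are libraries of pair Nseq428, and the cause was not tested.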

How the results depend on the processing

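The log2 fold changes of the 8 detected genes kept their sign and stayed within 1 SD of the libraries under all 104 alternatives run (DESeq2, another scaling, no filter, the replicate block, each of the 8 libraries left out, and pair Nseq428 left out, the last chosen after seeing the data). This is a weak check, since leaving out 1 of 4 libraries can hardly move a group mean by 1 SD of those libraries. Another scaling or tool used the same counts. All 16 alternatives of the topotecan differences stayed within 1 SD of the vehicle libraries, but this is a weak check too. Leaving out the variance trend cannot change a difference of means. For the medians of libraries, the vehicle SD (0.22 to 0.30) is wide beside differences that ran from -0.26 to 0.33. The number of genes called with pyraclostrobin, 4301, became 2631 at an adjusted p under 0.01, ran from 3248 to 5760 with 1 library left out and was 6246 without pair Nseq428. That of topotecan, 6090, became 1788 when only genes with an SD above 0.1 on the log10 scale were tested, a setting that tests fewer genes. The number of further pathway genes that rose with pyraclostrobin ran from 31 to 35 with 1 library left out, beside 33 with all. The number that fell, 4 with all libraries, ran from 1 to 7 with 1 library left out, was 7 without pair Nseq428 and 1 at an adjusted p under 0.01. Pair numbers were checked by the correlation of deviations of same-numbered libraries from their group means, which was 0.38, 0.10, -0.03 and 0.16, so not every pair deviated together; not every library correlated best with its own number. With the pair as a replicate block, 4804 genes were called, with 35 further pathway genes higher and 5 lower, and all 37 called without the block kept their call. The test of sulforaphane with fenamidone, and its alternative settings, were not run. Ankrd1 and Vgll2 lay under the filter on low counts, as did Tead4 and Runx1, but the last pair were called higher by DESeq2 and by edgeR with no filter. Those calls rest on genes that were low in vehicle and entered the tests partly through the treated group.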
